A study of Mus musculus with 8 samples.

Results

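The nuclear genes of respiratory complexes II to V were examined in bulk RNA-seq of brown adipose tissue (BAT). They were chosen by name as the protein-coding genes of the count table whose symbol is Sdha, Sdhb, Sdhc, Sdhd, Cyc1 or Cycs, or begins with Uqcr, Cox4 to Cox8 or Atp5. The rule gave 50 of the 31053 genes listed, with 4 in complex II, 9 in complex III, 18 in complex IV, 18 in complex V and 1 cytochrome c gene. The rule used names only and no measured value. Of the 50 genes, 46 had enough counts to be tested, against 8930 genes tested in all.

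BAT was taken from 4 WT mice and from 4 mice labelled ATGLKO, named Ucp1Δ/Δ in the study. All were C57BL6/J males. The labels give an age of 10 weeks. The figure legends give a younger age. In ATGLKO mice, both copies of the floxed Pnpla2 gene, which encodes the triglyceride lipase ATGL, are removed by a Cre recombinase under the Ucp1 promoter, so that the deletion is limited to thermogenic adipocytes and other cells of the tissue keep the gene. No text found here says whether the WT mice carried the floxed allele without Cre. The labels name the stromal vascular fraction as the cell type, yet the adipocyte transcripts Ucp1, Adipoq and Plin1 were abundant in every library, with Ucp1 between 1291 and 4110 CPM, a unit that scales each count to the size of its library.

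Complex II (succinate dehydrogenase) passes electrons to the carrier ubiquinone, from which complex III (the cytochrome bc1 complex) takes them to cytochrome c. Complex IV (cytochrome c oxidase) receives them from cytochrome c, and complexes III and IV move protons out of the mitochondrial matrix. Complex V, the ATP synthase, lets protons back in and makes ATP. Brown adipocytes are rich in mitochondria, and their uncoupling protein UCP1 provides a second way back for protons, which yields heat. Complex II is encoded by nuclear genes alone, whereas complexes III, IV and V also hold subunits encoded by mitochondrial DNA.

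Total counts per mouse ranged from 2017697 to 3115956 in WT and from 2240612 to 2941799 in ATGLKO, and between 38.4% and 45.6% of them came from mitochondrially encoded genes. At these depths 3 counts correspond to 0.933 to 1.53 CPM, a floor that covers counting error only. Pnpla2 was at 2837, 2702, 2961 and 3152 CPM in WT mice 1 to 4 and at 514, 448, 403 and 531 CPM in ATGLKO mice 1 to 4. All ATGLKO mice lay below all WT mice (log2FC -2.62, standard error 0.17, adjusted p = 1.97e-07 by the quasi-likelihood test of edgeR, adjusted after Benjamini and Hochberg). Markers of other cells differed between mice and genotypes. The sum of 8 macrophage markers was 89.8 to 151 CPM in WT and 952 to 1501 CPM in ATGLKO. At an adjusted p under 0.05, 7 of the 7 tested markers were higher, beside 13.3% of all genes tested. The sum of 5 fibroblast markers was 273 to 348 CPM in WT and 646 to 1097 CPM in ATGLKO, with 5 of 5 higher, beside the same 13.3%. The sum of 12 skeletal muscle markers ranged from 30.7 to 1809 CPM in WT and from 84.4 to 2444 CPM in ATGLKO. None of the 11 tested was called, beside 13.3% higher and 7.63% lower among all genes tested.

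Most of the respiratory genes were at a lower level in ATGLKO BAT, and few of them passed the test. The log2 fold change (log2FC, ATGLKO minus WT) was below 0 for 42 of the 46 genes tested, with a median of -0.36, whereas 50.7% of all genes tested were below 0, with a median of -0.01. By the same edgeR test, adjusted over all genes, 3 of the 46 fell (6.52%), beside 7.63% of all genes tested: Uqcrb, Cox6b1 and Cox8a. None was called higher, beside 13.3% of all genes tested. At an unadjusted p under 0.05, 18 of the 46 were lower, beside 14.3% of all genes tested, and 1, Atp5g1, was higher, beside 18.3%. All ATGLKO mice lay below all WT mice for 5 of the 46, Cox5b, Cox6a1, Cox8a, Atp5a1 and Atp5g3, beside 9.37% of all genes tested, and above them for none, beside 14.4%. The share called was therefore near the share among all genes, and the downward side of the distribution held more of these genes than of the others. The 46 genes were read in the same 8 mice and mostly moved together from mouse to mouse. Their number below 0 is therefore not a count of independent results. In bulk tissue, fewer brown adipocytes and less of these transcripts per cell cannot be told apart.

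**Figure D1:**
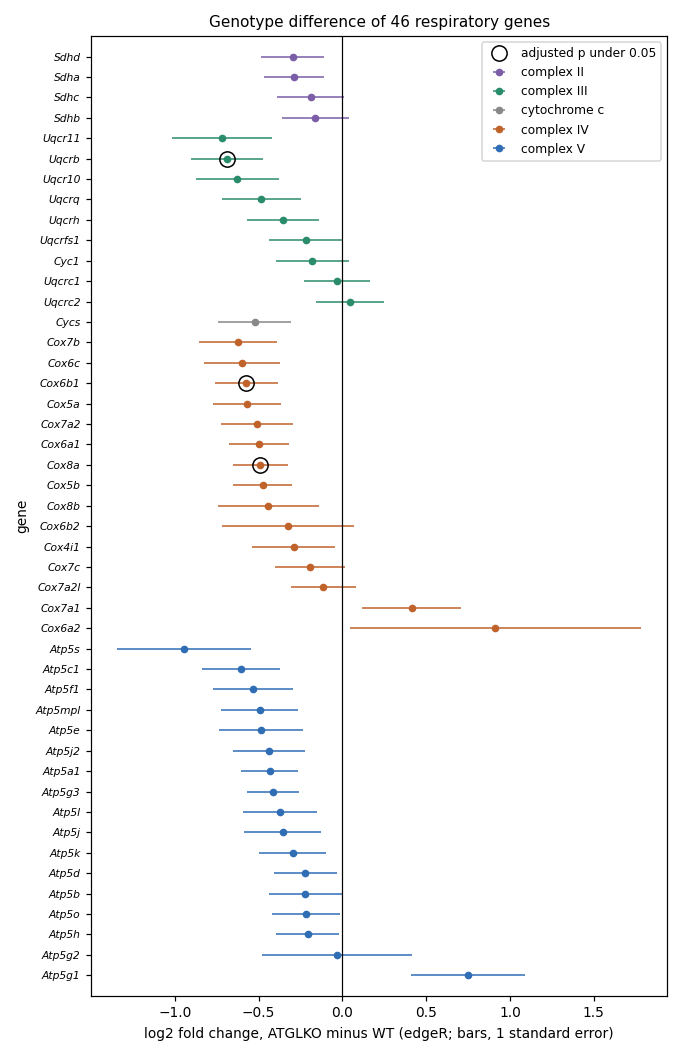
The log2FC of each of the 46 tested respiratory genes (horizontal axis, ATGLKO minus WT, bars of 1 standard error, 4 mice per genotype), in colours by complex, with circles around the 3 genes with an adjusted p under 0.05. In all, 42 genes lie left of 0, and Cox6a2, Cox7a1, Atp5g1 and Uqcrc2 lie right of it.

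The number of genes called lower depended on single mice. It was 0 without WT mouse 3 and without ATGLKO mouse 2, 3 or 4, 1 without WT mouse 1 (Atp5s) or WT mouse 2 (Cox8a), 3 without ATGLKO mouse 1, and 20 without WT mouse 4, or 43.5% of the 46, beside 9.19% of all genes tested without that mouse. DESeq2's Wald test called 11 of the 46 lower (23.9%), beside 6.2% of all genes it tested. The median log2FC of the 46 genes stayed below 0 in each of these fits, between -0.23 without WT mouse 2 and -0.49 without WT mouse 4. Scaling by total counts moved the median of all genes to 0.13 and that of the 46 to -0.23, with 39 below 0 and 0 called lower, so that the distance between them was -0.36 with either scaling. The share of all genes called was counted only for the main fit, the fit without WT mouse 4 and DESeq2's test.

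Stretches of sequence before 4 start sites are shown for the genes on which the results below turn: Cox7a1 and Cox7a2, the pair whose ratio did not overlap between genotypes; Cox8a, which fell with no overlap between genotypes; and Cox6a1, whose stretch holds a motif found before several of these genes. They come from RefSeq windows of the GRCm38.p6 build, 5′ to 3′ on the gene's strand, and stop before the first base annotated as transcribed. Capitals mark the NRF1 motif GCGCANGCG on either strand.
Cox7a1, chr7:30183921-30184143 (+ strand): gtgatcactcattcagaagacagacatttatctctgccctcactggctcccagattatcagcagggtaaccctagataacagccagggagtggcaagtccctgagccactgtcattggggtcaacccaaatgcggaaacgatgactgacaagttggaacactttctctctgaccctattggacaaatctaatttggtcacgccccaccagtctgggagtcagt
Cox7a2, chr9:79759879-79760103 (- strand): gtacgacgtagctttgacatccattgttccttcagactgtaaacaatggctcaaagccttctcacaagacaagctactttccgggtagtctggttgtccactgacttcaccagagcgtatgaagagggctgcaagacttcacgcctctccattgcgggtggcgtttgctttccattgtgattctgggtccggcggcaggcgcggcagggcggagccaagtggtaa
Cox8a, chr19:7217617-7217866 (- strand): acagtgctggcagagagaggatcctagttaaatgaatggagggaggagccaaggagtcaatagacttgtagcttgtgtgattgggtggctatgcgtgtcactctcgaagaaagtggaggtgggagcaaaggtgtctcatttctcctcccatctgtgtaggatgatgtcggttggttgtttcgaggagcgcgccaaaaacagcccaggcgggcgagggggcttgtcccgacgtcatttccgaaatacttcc
Cox6a1, chr5:115348982-115349208 (- strand): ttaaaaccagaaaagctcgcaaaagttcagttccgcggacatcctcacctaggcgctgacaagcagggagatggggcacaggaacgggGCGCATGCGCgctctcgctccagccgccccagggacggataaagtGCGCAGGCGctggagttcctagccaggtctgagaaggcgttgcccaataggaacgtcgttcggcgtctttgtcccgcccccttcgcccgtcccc

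A RefSeq window was matched for 35 of the 50 genes, 3 of them with 2 windows, so 38 windows were searched over the 250 bases before the start. GCGCANGCG, the core read by NRF-1, a factor known for control of respiratory genes, stood on either strand in 9 of the 38 windows (23.7%), against 5.16% of 32851 windows of all genes. It was found before Sdha, Sdhd, Cycs, Cox6a1, Atp5c1, Atp5g2, Atp5h, Atp5k and Atp5l. CCGGAAG, a core of ETS factors such as GABP, stood in 9 of the 38 (23.7%), against 6.91% of all windows. Among them were the windows of Cox6b1 and of Cox6a1, in the latter beyond the end of the stretch shown. TCAAGGTCA, the site of oestrogen-related receptors, stood in 1 of the 38 (2.63%), that of Atp5g3, against 0.387%, and CTAAAAATA, a MEF2 site, in none, against 0.469%. TATAAA on the gene's strand stood in none, against 7.59% of all windows. None of these letters overlapped those of another motif, except that NRF1 matches on opposite strands shared bases in Cox6a1, Atp5g2 and Atp5k and were counted once per window. None of the 5 motifs stood before Cox7a1, Cox7a2 or Cox8a. Uqcrb was among the genes with no matched window and was not searched. The median GC content of the 38 stretches was 54.2%, against 52.4% in all windows. These matches describe the sequence only.

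The order of the mice was much the same for most of these genes. WT mouse 2 was the highest WT mouse for 35 of the 46 genes and WT mouse 4 the lowest for 39, or 76.1% and 84.8% of the genes, against 35.1% and 30.5% of all genes tested. In ATGLKO, mouse 1 was the highest for 29 genes, and mouse 4 or 2 the lowest for 24 and 18. Summed over the 46 genes, the level was 45361, 62469, 51618 and 32951 CPM in WT mice 1 to 4 and 43157, 31663, 41630 and 31511 CPM in ATGLKO mice 1 to 4. WT mouse 4 thus lay among the ATGLKO mice, and ATGLKO mice 1 and 3 lay between WT mice 4 and 1. The spread was wider in WT, with a median log2 range over 4 mice of 0.99 against 0.56 in ATGLKO, and was wider in WT for 43 of the 46 genes (93.5%), against 66.8% of all genes tested. All 46 genes were read in the same 8 libraries, so these counts are not independent.

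Markers of other cells were set beside this order. The summed brown adipocyte markers were highest in WT mouse 2 at 20699 CPM and lowest among WT in mouse 4 at 12892 CPM, and in ATGLKO were highest in mouse 1 at 13377 CPM and lowest in mouse 2 at 8992 CPM. The skeletal muscle sum was 1809, 128, 30.7 and 852 CPM in WT mice 1 to 4 and 394, 2444, 84.4 and 1117 CPM in ATGLKO mice 1 to 4. In each genotype, the mice with more muscle RNA, 1 and 4 in WT and 2 and 4 in ATGLKO, were those with the lower sums of the respiratory genes. Their part in the genotype difference was not tested beyond the following fits, chosen after the data were seen. With the muscle marker level as a covariate, 1 gene, Uqcrb, was called lower and the median log2FC of the 46 was -0.30. Without WT mice 1 and 4 and ATGLKO mice 2 and 4, 3 genes were called lower, Cox6c, Uqcr10 and Uqcr11, and the median was -0.40.

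**Figure D2:**
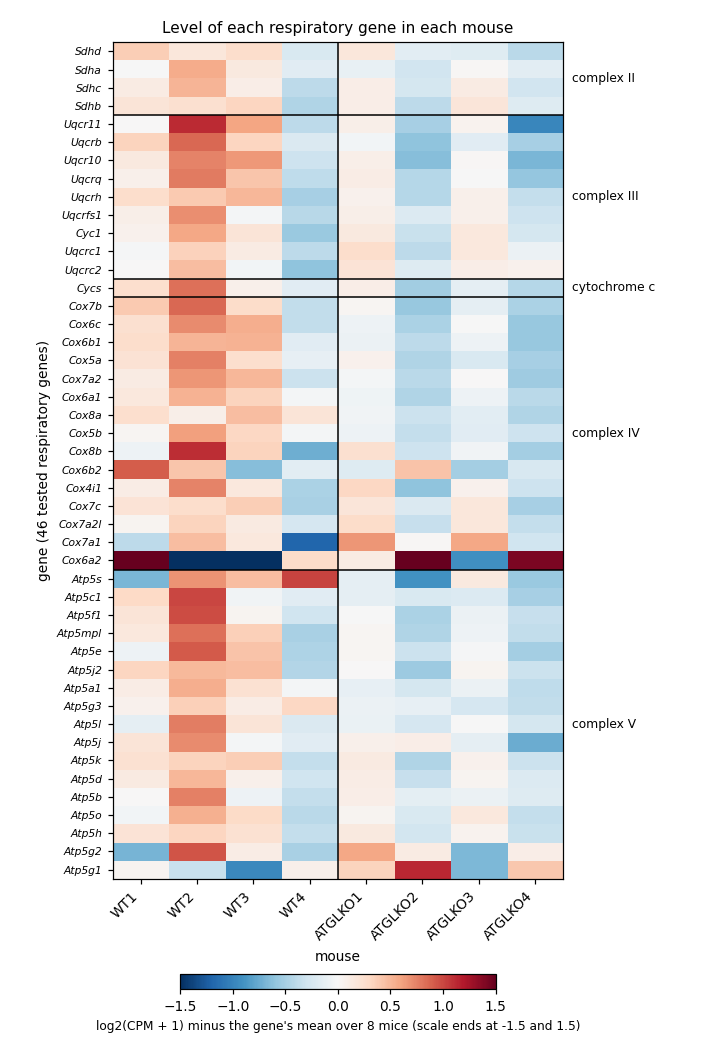
Level of the 46 tested respiratory genes (rows, by complex) in the 8 mice (columns), as log2(CPM + 1) minus the gene's mean over all mice, from blue (lower) to red (higher). WT mouse 2 is red and WT mouse 4, ATGLKO mouse 2 and ATGLKO mouse 4 are blue for most genes, while Cox6a2 follows another order.

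**Figure D3:**
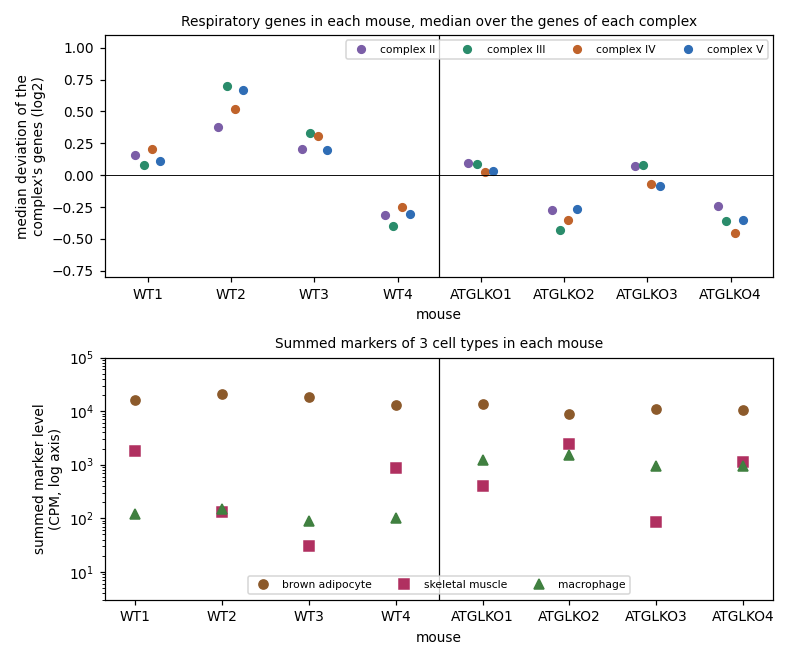
Upper plot, the median over the tested genes of each complex of log2(CPM + 1) minus the gene's mean over 8 mice; lower plot, the summed CPM of brown adipocyte, skeletal muscle and macrophage markers on a log axis, both by mouse. The 4 complexes move together from mouse to mouse, from between 0.38 and 0.70 in WT mouse 2 to between -0.40 and -0.25 in WT mouse 4.

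Complex II had the median log2FC closest to 0 among the complexes, -0.24, with all 4 genes below 0 and none called. Its ends were close to each other. Sdhd, an anchor of the complex in the inner membrane, was at 57.1, 49.7, 53.1 and 37.5 CPM in WT mice 1 to 4 and at 49.5, 39.2, 38.9 and 33 CPM in ATGLKO mice 1 to 4. WT mouse 4 lay among the ATGLKO mice and the other WT mice above them (log2FC -0.30 ± 0.19 standard error, edgeR adjusted p = 0.299). Sdhb, the iron-sulfur subunit, was at 1931, 1996, 2111 and 1233 CPM in WT and at 1809, 1290, 1924 and 1480 CPM in ATGLKO, with WT mouse 4 the lowest of all 8 (log2FC -0.16 ± 0.20, edgeR adjusted p = 0.621). The flavoprotein gene Sdha (log2FC -0.29) and the other anchor gene Sdhc (-0.19) lay between them.

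In complex III, 8 of 9 genes had a log2FC below 0 and 1, the small subunit gene Uqcrb, was called lower. The 5 small subunit genes, Uqcrb, Uqcrq, Uqcrh, Uqcr10 and Uqcr11, had a median log2FC of -0.63, the catalytic subunits Cyc1 (cytochrome c1) and Uqcrfs1 (the Rieske iron-sulfur protein) had -0.18 and -0.22, and the core proteins Uqcrc1 and Uqcrc2 had -0.03 and 0.04. This grouping follows a list of roles, and the difference between roles was not tested. Uqcr11, with the lowest log2FC in the complex, was at 556, 1208, 835 and 421 CPM in WT and at 589, 391, 575 and 281 CPM in ATGLKO. Its genotypes overlapped because WT mice 1 and 4 lay below ATGLKO mouse 1 (log2FC -0.72 ± 0.30, edgeR adjusted p = 0.104). Uqcrc2 was at 821, 1129, 798 and 537 CPM in WT and at 945, 713, 876 and 854 CPM in ATGLKO, with the ATGLKO mice inside the WT range (log2FC 0.04 ± 0.20, edgeR adjusted p = 0.911). Its sign turned to -0.12 without WT mouse 4, and that of Uqcrc1 turned to 0.10 with total counts as the scale.

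Uqcrb (ENSMUSG00000021520, chromosome 13, 66900617 to 66905378, minus strand of mm10) encodes a small subunit near the ubiquinone site and had the smallest adjusted p of all 46 genes. It was at 760, 1092, 755 and 519 CPM in WT mice and at 585, 397, 535 and 424 CPM in ATGLKO mice. WT mouse 4 lay among the ATGLKO mice and the other WT mice lay above all of them. The level fell to 62.1% of that in WT (log2FC -0.69 ± 0.22, edgeR's quasi-likelihood test, adjusted p = 0.0334). The call was lost with total counts as the scale (adjusted p = 0.0708) and without any 1 of WT mice 1, 2 or 3 or ATGLKO mice 2, 3 or 4 (edgeR adjusted p from 0.0522 to 0.108), and held without WT mouse 4 (0.00489) or ATGLKO mouse 1 (0.0318). Of the 75-base stretches in its transcripts, the length of a read, 16.7% also occur in other genes' transcripts. Part of its counts is therefore uncertain, and how large a part was not measured. Another 50 bases of its exons lie across from Gm10767, with 14 counts over all mice, and the counting was not stated to use strand.

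Cytochrome c, encoded by Cycs, carries electrons from complex III to complex IV. It was at 279, 418, 248 and 209 CPM in WT and at 252, 163, 214 and 175 CPM in ATGLKO. WT mice 3 and 4 lay within the range of ATGLKO (log2FC -0.52 ± 0.22, edgeR adjusted p = 0.107), and 23.9% of its 75-base stretches also occur in other genes' transcripts.

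Complex IV had the lowest median of the complexes with several genes, -0.47 over 15 tested genes, with 13 below 0 and 2 called lower. The catalytic core of the complex is encoded by mitochondrial DNA, and the nuclear genes here encode the subunits around it. Cox6b1 (ENSMUSG00000036751, chromosome 7, 30616861 to 30626151, minus strand) encodes a subunit on the outer face that helps to join the monomers of the dimer. It was at 1600, 1887, 1900 and 1182 CPM in WT mice and at 1246, 1015, 1257 and 899 CPM in ATGLKO mice. WT mouse 4 lay within the range of ATGLKO and the other WT mice above it. The level fell to 67.2% of that in WT (log2FC -0.57 ± 0.19, edgeR adjusted p = 0.0431). Its call was lost with total counts as the scale (edgeR adjusted p = 0.109), with at least 10 counts required in every mouse (edgeR adjusted p = 0.0723) and when any mouse other than WT mouse 4 was left out (edgeR adjusted p from 0.0503 to 0.128).

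Cox8a (ENSMUSG00000035885, chromosome 19, 7215153 to 7217616, minus strand), the broadly expressed form of a small membrane subunit, was at 1181, 1051, 1364 and 1130 CPM in WT mice and at 957, 795, 891 and 723 CPM in ATGLKO mice. The genotypes did not overlap, and WT mouse 2, the highest for most of these genes, was the lowest WT mouse here. The level fell to 71.2% of that in WT (log2FC -0.49 ± 0.16, edgeR adjusted p = 0.0433). The call was lost with total counts as the scale (edgeR adjusted p = 0.135), with a filter of 1 count in any mouse or of 10 counts in every mouse (edgeR adjusted p = 0.0623 and 0.0859) and without WT mouse 1 or 3 or ATGLKO mouse 2, 3 or 4 (edgeR adjusted p from 0.0807 to 0.142), and held without WT mouse 2, WT mouse 4 or ATGLKO mouse 1.

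Of the other genes of complex IV, Cox6a1 and Cox5b also separated the genotypes without passing the test. Cox6a1, the broad form of subunit 6A, was at 3666, 4685, 4131 and 3203 CPM in WT and at 3137, 2388, 3112 and 2478 CPM in ATGLKO. The gap between the lowest WT mouse, 4, and the highest ATGLKO mouse, 1, was narrow (log2FC -0.50 ± 0.18, edgeR adjusted p = 0.0617). Cox5b, which binds zinc on the matrix side, was at 776, 1163, 942 and 744 CPM in WT and at 724, 596, 675 and 614 CPM in ATGLKO, again with WT mouse 4 next to ATGLKO mouse 1 (log2FC -0.47 ± 0.18, edgeR adjusted p = 0.0691). Cox7b had the lowest log2FC in the complex. It was at 1163, 1611, 1066 and 682 CPM in WT and at 899, 595, 805 and 634 CPM in ATGLKO, where WT mouse 4 lay between ATGLKO mice 4 and 3 (log2FC -0.62 ± 0.23, edgeR adjusted p = 0.0686). Cox5a (log2FC -0.57) and Cox6c (-0.60) lay close to it, and Cox4i1 (-0.29), Cox7c (-0.19) and Cox7a2l (-0.11) lay nearer to 0.

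**Figure D4:**
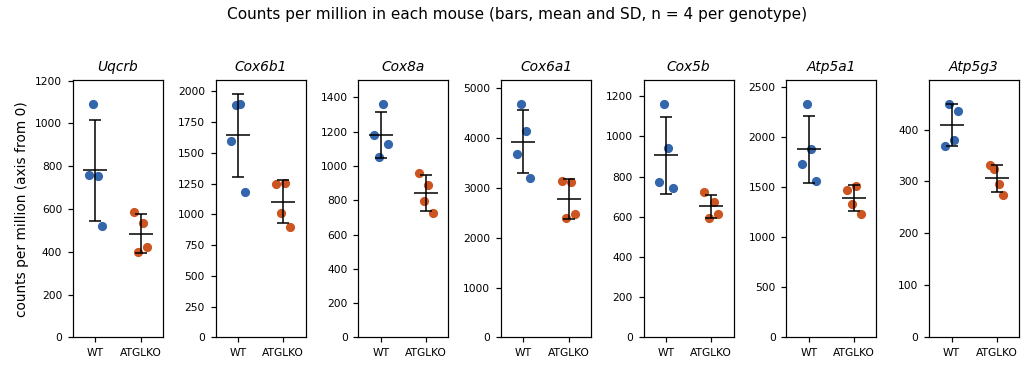
CPM of 7 respiratory genes in each mouse (points), with the mean and SD of 4 mice per genotype, on axes from 0. Uqcrb, Cox6b1 and Cox8a had an adjusted p under 0.05, and in Cox8a, Cox6a1, Cox5b, Atp5a1 and Atp5g3 the genotypes do not overlap.

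Complex IV and the ATP synthase have subunits with tissue forms, encoded by different genes, and 5 such sets were compared as the log2 ratio of their counts within each mouse, which does not depend on how libraries are scaled. Cox7a1 (ENSMUSG00000074218, chromosome 7, 30184144 to 30186078, plus strand) is the form of subunit 7A typical of muscle and brown fat, and Cox7a2 (ENSMUSG00000032330, chromosome 9, 79755361 to 79759878, minus strand) is the broad form. Cox7a1 was at 750, 1356, 1096 and 431 CPM in WT and at 1558, 1000, 1477 and 803 CPM in ATGLKO, with overlapping genotypes (log2FC 0.41 ± 0.30, edgeR adjusted p = 0.367). Cox7a2 was at 1548, 2255, 2014 and 1141 CPM in WT and at 1390, 1078, 1431 and 981 CPM in ATGLKO, where only WT mouse 4 lay within the range of the ATGLKO mice (log2FC -0.51 ± 0.22, edgeR adjusted p = 0.109). Neither gene passed the test alone.

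Their ratio separated the genotypes. Cox7a1 counts were 0.485, 0.601, 0.544 and 0.378 of Cox7a2 counts in WT mice 1 to 4 and 1.12, 0.928, 1.03 and 0.818 in ATGLKO mice 1 to 4. Every ATGLKO mouse lay above every WT mouse, and the share of Cox7a1 in the counts of both genes was 33.2% ± 4.36 (SD, n = 4) in WT and 49.2% ± 3.39 (SD, n = 4) in ATGLKO. The mean log2 ratio was -1.02 ± 0.29 (SD) in WT and -0.05 ± 0.20 (SD) in ATGLKO, a 1.96-fold difference (0.97 on the log2 scale, p = 0.0286 in a two-sided exact permutation test, where 4 mice against 4 allow no smaller p). Adjusted over the 4 pairs tested, p was 0.114, which does not pass 0.05. Where only 1 of 4 pairs reaches the smallest p, its adjusted p cannot pass 0.05 however large the difference. The adjusted test therefore could not decide. The difference was between 0.84 and 1.06 with each mouse left out in turn, and 0.91 without WT mice 1 and 4 and ATGLKO mice 2 and 4. No 75-base stretch of either gene's transcripts occurred in another gene. The ratio compares reads of 2 transcripts and not their molecules.

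Cox8b, the muscle and brown fat form of subunit 8, was at 1202, 2740.5, 1594 and 761 CPM in WT and at 1498, 1023, 1227 and 888 CPM in ATGLKO, with the ATGLKO mice inside the WT range (log2FC -0.44 ± 0.30, edgeR adjusted p = 0.338). Its counts were 1.02, 2.61, 1.17 and 0.673 of those of Cox8a in WT and 1.56, 1.29, 1.38 and 1.23 in ATGLKO. The ratio overlapped, the mean difference was 0.18 on the log2 scale (two-sided exact permutation test, p = 0.657, adjusted p = 0.657), and it became -0.10 without WT mouse 4. Subunits 7A and 8 thus gave different pictures, and the difference between the 2 ratios was not tested.

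Cox6a2, the muscle form of subunit 6A that brown adipocytes also express, had the highest log2FC of all 46 genes and the widest error. It was at 57.6, 2.24, 0 and 14.7 CPM in WT and at 13.1, 79.3, 5.85 and 33.5 CPM in ATGLKO (log2FC 0.91 ± 0.87, edgeR adjusted p = 0.512). Its high and low mice in each genotype were those of the muscle sum, which was highest in WT mouse 1 and ATGLKO mouse 2 and lowest in WT mouse 3 and ATGLKO mouse 3. Its log2 ratio to Cox6a1 was 2.80 higher in ATGLKO (two-sided exact permutation test, p = 0.314, adjusted p = 0.419). The size of this difference leans on WT mouse 3, which had 0 counts of Cox6a2. The 0.5 added to counts set that mouse's ratio at -14.6, beside -10.9 to -5.99 in the other WT mice (SD in WT 3.78). The sign of the log2FC of Cox6a2 turned to -0.03 without ATGLKO mouse 2. Without WT mice 1 and 4 and ATGLKO mice 2 and 4, its log2FC was 3.25 and called (edgeR adjusted p = 0.0227), with WT mice 3 and 2 at 0 and 2.24 CPM.

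Cox4i1, the broad form of subunit 4, was at 1713, 2669, 1773 and 1145 CPM in WT and at 1978, 1046, 1661 and 1287 CPM in ATGLKO, with overlapping genotypes (log2FC -0.29 ± 0.25, edgeR adjusted p = 0.458). Its second form Cox4i2, best known from lung, had 54 counts over all mice, was at 1.87 to 4.56 CPM in the 8 mice and was not tested. Of the other untested genes, Cox7b2 and Cox8c had 0 counts in every mouse, and so had a second entry named Atp5o (ENSMUSG00000116933) whose exons lie within those of Atp5o (ENSMUSG00000022956) and Donson. At 0 counts, Cox7b2 and Cox8c had less than 1.53 CPM in each mouse by the floor of 3 counts. For the second Atp5o entry, 83.8% of its 75-base stretches also occur in other genes, so its 0 counts set no such bound.

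**Figure D5:**
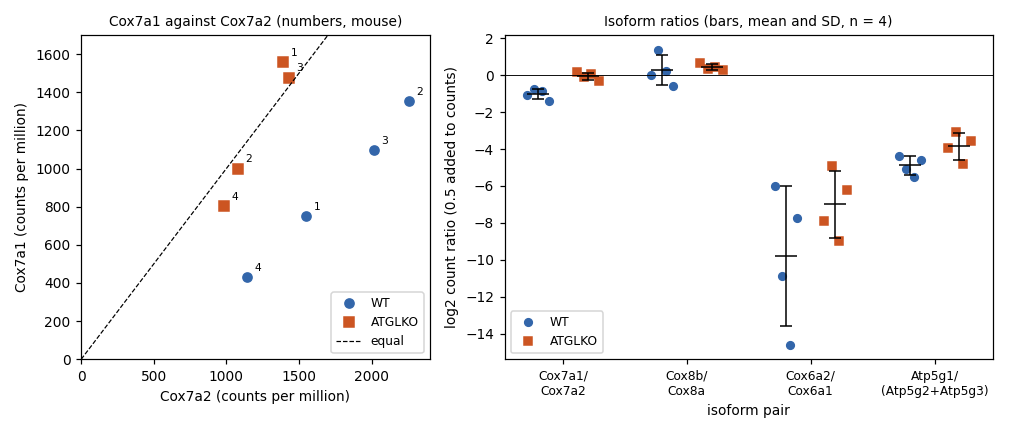
Left, CPM of Cox7a1 against CPM of Cox7a2 in each mouse, with a dashed line where they are equal. Right, the log2 ratio of counts for the 4 tested isoform pairs by mouse, with mean and SD of 4 mice per genotype; only in Cox7a1 over Cox7a2, from -1.02 in WT to -0.05 in ATGLKO, do the genotypes not overlap.

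Complex V had a median log2FC of -0.37 over 17 tested genes, with 16 below 0 and none called. The 5 genes of the catalytic F1 head, Atp5a1, Atp5b, Atp5c1, Atp5d and Atp5e, had a median of -0.43, the 4 membrane accessory genes -0.40, the 4 genes of the peripheral stalk -0.29 and the 3 genes of the proton-carrying c ring -0.03. This c ring median is the value of Atp5g2, at 2.04 to 8.51 CPM in WT, whereas Atp5g3, at 368 to 450 CPM in WT, had -0.42. The difference between these parts was not tested. Atp5a1, the alpha subunit of the head, was at 1731, 2335, 1878 and 1565 CPM in WT and at 1477, 1334, 1514 and 1231 CPM in ATGLKO, without overlap (log2FC -0.43 ± 0.17, edgeR adjusted p = 0.0853). Atp5s, also known as factor B, had the lowest log2FC of all 46 genes on few counts. It was at 3.06, 9.41, 8.01 and 12.2 CPM in WT and at 4.95, 2.49, 6.27 and 3.43 CPM in ATGLKO, and WT mouse 1 lay among the ATGLKO mice (log2FC -0.94 ± 0.40, edgeR adjusted p = 0.112).

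The c ring subunit is encoded by 3 genes whose mature proteins are the same. Atp5g3 was at 368, 450, 380 and 436 CPM in WT and at 331, 324, 295 and 273 CPM in ATGLKO, without overlap (log2FC -0.42 ± 0.16, edgeR adjusted p = 0.071). Atp5g1, the form known for its regulation in brown fat, was at 17.8, 13.4, 8.35 and 18.2 CPM in WT and at 21.9, 38.9, 10.4 and 23.2 CPM in ATGLKO, where ATGLKO mouse 3 lay within the WT range and the other ATGLKO mice above it (log2FC 0.75 ± 0.34, edgeR adjusted p = 0.139). Atp5g2 was at 2.04 to 8.51 CPM in WT and at 2.09 to 6.37 CPM in ATGLKO (log2FC -0.03 ± 0.45, edgeR adjusted p = 0.971), and its sign changed with the scaling. The log2 ratio of Atp5g1 to the sum of the other two was 1.03 higher in ATGLKO (two-sided exact permutation test, p = 0.0857, adjusted p = 0.171). Without ATGLKO mouse 3, Atp5g1 was called higher (log2FC 0.998, edgeR adjusted p = 0.0289). The log2FC of Atp5g1 was 0.39 without ATGLKO mouse 2 (edgeR adjusted p = 0.486) and 0.52 without WT mouse 3 (edgeR adjusted p = 0.351). Atp5g1 and the skeletal muscle sum were both highest in ATGLKO mouse 2 and lowest in ATGLKO mouse 3. In WT both were lowest in mouse 3, and their highest mice differed. With the muscle marker level as a covariate, the log2FC of Atp5g1 was 0.44 (edgeR adjusted p = 0.222). The part of muscle RNA in its level was not tested further. The ratio of Atp5g1 to the other two differed by 0.77 to 1.35 with each mouse left out. Of the 75-base stretches of Atp5g1 and Atp5g2, 7.21% and 35.8% also occur in other genes.

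The partners of these subunits encoded by mitochondrial DNA did not pass the test, 0 of 6 in either direction, beside 7.63% lower and 13.3% higher among all genes tested. The complex III gene mt-Cytb was at 60987 to 69311 CPM in WT and at 46454 to 59712 CPM in ATGLKO, without overlap (log2FC -0.29 ± 0.19, edgeR adjusted p = 0.302). The 3 genes of complex IV, mt-Co1, mt-Co2 and mt-Co3, ranged in log2FC from -0.45 to 0.05, and mt-Atp6 and mt-Atp8 of complex V were at -0.04 and 0.25. Their levels were very unequal. In WT, mt-Co1 had a mean of 3822 CPM, whereas mt-Co2, mt-Co3, mt-Atp6 and mt-Atp8 had means of 38.2, 52.5, 58.5 and 3.57 CPM. The gene mt-Nd4 alone held between 21.6% and 26.6% of all counts. How evenly these libraries captured the mitochondrial transcripts was not tested.

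Among 41 tested assembly and accessory genes of complexes II to V, 1 rose and 2 fell, beside 13.3% higher and 7.63% lower among all genes tested. Ndufa4, a subunit of complex IV named after complex I, was at 266, 584, 235 and 165 CPM in WT and at 160, 133, 146 and 136 CPM in ATGLKO, without overlap, and fell to 46% of the WT level (log2FC -1.12 ± 0.30, edgeR adjusted p = 0.0131). Tmem242, an assembly factor of the ATP synthase, was at 229, 275, 210 and 146 CPM in WT and at 163, 115, 137 and 121 CPM in ATGLKO, and fell (log2FC -0.68 ± 0.20, edgeR adjusted p = 0.0238) with only WT mouse 4 within the ATGLKO range. Atpif1, the inhibitor that blocks the ATP synthase from running in reverse, was at 21.9, 27.8, 23 and 23.8 CPM in WT and at 45.3, 56.6, 35.5 and 37.3 CPM in ATGLKO. All ATGLKO mice lay above all WT mice, and the gene rose to 182% of the WT level (log2FC 0.86 ± 0.20, edgeR adjusted p = 0.00512). The assembly genes of complexes II and III, 4 and 7 tested, had none called, with log2FC from -0.75 to 0.05 and from -0.45 to 0.19.

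Of 12 tested regulators of mitochondrial biogenesis, 2 fell and none rose, beside the same 7.63% and 13.3% of all genes tested. Esrra, an oestrogen-related receptor that binds respiratory genes, was at 14.8, 43.9, 17.4 and 24.3 CPM in WT and at 12.4, 8.09, 10.4 and 7.3 CPM in ATGLKO, without overlap (log2FC -1.38 ± 0.32, edgeR adjusted p = 0.00611). Ppara, a fatty acid receptor, was at 232, 132, 237 and 209 CPM in WT and at 63.3, 78.1, 142 and 96.1 CPM in ATGLKO, with WT mouse 2 within the ATGLKO range (log2FC -1.10 ± 0.25, edgeR adjusted p = 0.00476). Among 5 uncoupling and carrier genes, Ucp2, which macrophages also express, rose from 18.4 to 29.9 CPM in WT to 95.3 to 161 CPM in ATGLKO (log2FC 2.43 ± 0.21, edgeR adjusted p = 1.48e-06), beside the macrophage markers above, and their part in it was not tested. Ucp3 fell from 32.1 to 76.8 CPM in WT to 12.4 to 33.6 CPM in ATGLKO, with overlap (log2FC -1.09 ± 0.31, edgeR adjusted p = 0.0209). Ucp1 was at 2051, 4110, 3426 and 1291 CPM in WT and at 2821, 1421, 1972 and 2394 CPM in ATGLKO, with the ATGLKO mice inside the WT range (log2FC -0.34 ± 0.30, edgeR adjusted p = 0.481). The carrier genes Slc25a4 and Slc25a5 were not called (log2FC -0.40 and -0.37, edgeR adjusted p = 0.0668 and 0.287). For Slc25a4, every ATGLKO mouse lay below every WT mouse. Of these 5 genes, 1 rose and 1 fell, beside 13.3% and 7.63% of all genes tested. The 8 brown adipocyte markers held 4 that fell, Cidea, Elovl3, Adipoq and Plin1, and 1 that rose, Dio2, beside 7.63% and 13.3% of all genes tested. Ucp1, Pparg and Fabp4 were not called (edgeR adjusted p = 0.481, 0.219 and 0.127).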

How the data were processed

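Bulk RNA-seq libraries of BAT from 4 WT and 4 ATGLKO mice were prepared by a digital mRNA-seq service and sequenced single-end over 75 cycles. The authors trimmed the reads, aligned them to the mm10 mouse genome and deposited whole-number counts per Ensembl gene, without normalization. Their methods name bbduk, STAR and HTseq-counts, whereas the submitters' processing notes name Trimmomatic, HISAT2 and DESeq2, and the files do not settle which made the counts. Annotation release and use of strand are not given in the sources used here. Deposited normalized values were not used.

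GENCODE M21 gave gene names, coordinates and overlapping exons, and named 31011 of the 31053 identifiers. The default filterByExpr left 8930 genes, which were scaled by TMM and tested on genotype with the quasi-likelihood test of edgeR 4.0.16 in R 4.3.3, with Benjamini-Hochberg adjustment over all genes and a threshold of 0.05. Standard errors were obtained by dividing the absolute log2FC by the root of the F statistic. CPM values use the TMM-scaled totals. Isoform ratios used counts plus 0.5 and a two-sided exact permutation test over 70 splits of the mice. The study tested genotype with DESeq2. Alternatives were DESeq2 1.42.0, limma 3.58.1 voom with sample weights, other scalings and filters, the replicate number as a block and each mouse left out. The fits were also run on counts simulated for each gene separately. Such counts lack a shift shared by many genes within a mouse, so they do not vouch for the calls here.

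Each column was assigned to its mouse by name, and no column was left over. Mice of 1 genotype differed beyond counting error, so none was counted as a duplicate. They are separate animals, and no batch is given in the labels. Genes with adjusted p under 0.05, the highest and lowest log2FC per complex, the isoform genes and the untested members were named by rule. Cox5b, Atp5a1, Cox5a and other members beyond it were picked for naming with their values in view. The members and gene lists were chosen with earlier results of these data known.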

Additional observations from a re-analysis of the deposited data

Results flagged for a closer look

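In each group of 4 mice, the gap between the highest or lowest mouse and its nearest neighbour was divided by the group's range, and 2 of 118 groups passed the 95% critical value of Dixon's test for 4 samples, where chance at 1 in 20 would give 5.9. Sdhb in WT passed at 0.834, with WT mouse 4 at 1233 CPM and the others at 1931 to 2111 CPM. The log2 ratio of Cox4i2 to Cox4i1 in WT passed at 0.876, with WT mouse 4 at -7.90 and the others between -9.67 and -9.45, on 4 to 9 counts of Cox4i2 per mouse. Both flags fall on WT mouse 4.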

How the results depend on the processing

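The 3 genes called lower became 0 with total counts only, 11 with DESeq2's Wald test, 7 with voom, 10 with a filter of only 1 count in any mouse, and 1 each with at least 10 counts in every mouse and with the muscle covariate. With each mouse left out they ranged from 0 to 20. With DESeq2's size factors they were 4, with mitochondrially encoded genes removed 3, and without the 2 mice of each genotype with most muscle RNA 3. The count of genes called higher became 2 with the 1 count filter (Atp5g1 and Cox6a2), 1 without the muscle-rich mice (Cox6a2), and ranged from 0 to 1 with each mouse left out. In the main fit, 7.63% of all genes tested were called lower and 13.3% higher, and DESeq2's Wald test called 6.2% of its genes lower. For the other scalings, voom, the filters and the muscle fits, the share of all genes called was not counted. Whether the respiratory genes moved apart from the rest in those settings is therefore not shown. Why these counts moved was not tested.

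Same-numbered mice are different animals, and the correlations of their deviations from the group mean were -0.09, -0.20, 0.30 and 0.24, so the numbers were not taken as pairs. With the replicate number as a block, 2 genes were called lower, Uqcrb and Cox6b1, and 0 higher, and Cox8a lost its call (edgeR adjusted p = 0.0541). The blocked Cox7a1 over Cox7a2 difference stayed 0.97 with p = 0.125, the smallest that 4 pairs allow in an exact test.

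The Cox8b over Cox8a difference, 0.18, ranged from -0.10 to 0.55 with each mouse left out and was -0.25 without the muscle-rich mice. The Atp5g1 ratio, 1.03, ranged from 0.77 to 1.35. Of 54 single genes compared, 18 kept direction and side of the threshold in every alternative, and 8 changed sign in at least 1. Uqcrc1 (-0.03) was at 0.101 with total counts, 0.0382 with the 10 count filter, 0.0379 with the muscle covariate and from -0.163 to 0.0895 with each mouse left out. Uqcrc2 (0.04) was at -0.0627 without the muscle-rich mice and from -0.123 to 0.226 with each mouse left out. Atp5g2 (-0.03) was at 0.106 with total counts, 0.218 with voom, 0.078 with the muscle covariate and from -0.276 to 0.462 with each mouse left out. Cox7a2l was at 0.018 with total counts and 0.00259 without the muscle-rich mice. With each mouse left out, Uqcrfs1 ranged from -0.378 to 0.0174, Atp5b from -0.366 to 0.0485, Cox6b2 from -0.602 to 0.0115 and Cox6a2 from -0.0309 to 2.70.

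At these totals, 4 of the 50 genes were untested, and differences in genes of a few CPM, such as Atp5s, Atp5g2 and Cox6b2, are hard to detect.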
